A study of Mus musculus with 6 samples.

Results

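The chains of the interleukin-4 (IL-4) receptor and the Janus kinases bound to them were examined in open-chromatin profiles of T follicular helper cells from the mouse. The members were 7 genes given by symbol: Il4ra, Il2rg, Il13ra1, Jak1, Jak2, Jak3 and Tyk2. Every peak of the deposited list that carried one of these symbols was taken, which gave 103 of 282898 peaks and 6 of the 7 genes, among 19109 genes with a peak. Il13ra1 had no peak. The assay was ATAC-seq, where a transposase inserts sequencing adaptors into accessible DNA, so that a peak of reads marks open chromatin and not RNA or protein. The 6 libraries came from Tfh21, Tfh214 and Tfh4 cells, each population with 1 library of intact Stat6 (wild type, WT) and 1 of Stat6 knockout (KO). Where 3 values of a genotype are given below, they are in the order Tfh21, Tfh214, Tfh4. The cells were untreated and came from C57BL/6 mice, sorted by flow cytometry from 10 mice per genotype, with 50000 cells per library. The age and sex of the mice, the tissue, the gates of the sort and the design of the Stat6 allele were not given in the sources used here. With 1 library per group, no interval below covers the spread between animals. Because cells were pooled, a lower value cannot be told apart between fewer cells with an open site and less opening in every cell.

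IL-4 binds the receptor chain encoded by Il4ra, which then pairs either with the common gamma chain, encoded by Il2rg, or with the chain encoded by Il13ra1. The first pair is the receptor of lymphocytes, and the second also binds IL-13 and is best known in cells outside the lymphoid lineages. The intracellular tails of the chains hold Janus kinases, which phosphorylate the receptor so that STAT6 can dock, be phosphorylated in turn and enter the nucleus. JAK1 is bound by the Il4ra chain, JAK3 by the common gamma chain, and TYK2 or JAK2 by the Il13ra1 chain. The same kinases serve many other cytokine receptors, JAK1 and JAK3 the IL-21 receptor among them. T follicular helper cells give help to B cells in germinal centres, largely through IL-21 and IL-4.

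The promoters of the members differed in sequence as well as in opening. The 250 bases upstream of the start site are shown for 5 genes, from RefSeq in build GRCm38.p6, read along the strand of each gene. All 7 genes had an entry in that table. They are shown because Jak2 and Il2rg, with the most and the fewest CpG dinucleotides, Jak3, with the next fewest, and Il13ra1, which had no peak, span the range of the members, and because Il4ra encodes the chain that binds IL-4. Capitals mark CpG dinucleotides in the first 4 sequences. In the Il4ra sequence, capitals mark an octamer motif and an SP1-type GC box.
Jak2 at chr19:29251553-29251802, plus strand: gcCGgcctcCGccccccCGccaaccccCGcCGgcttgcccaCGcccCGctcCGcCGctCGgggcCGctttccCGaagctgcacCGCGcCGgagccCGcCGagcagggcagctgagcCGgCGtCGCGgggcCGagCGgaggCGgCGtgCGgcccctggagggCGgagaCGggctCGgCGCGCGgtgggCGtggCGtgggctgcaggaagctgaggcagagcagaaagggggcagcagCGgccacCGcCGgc
Il2rg at chrX:101268256-101268505, minus strand: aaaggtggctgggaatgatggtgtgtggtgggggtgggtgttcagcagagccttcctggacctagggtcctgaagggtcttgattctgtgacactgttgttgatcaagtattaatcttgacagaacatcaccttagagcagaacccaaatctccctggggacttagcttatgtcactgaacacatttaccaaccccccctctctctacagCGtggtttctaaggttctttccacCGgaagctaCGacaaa
Jak3 at chr8:71676133-71676382, plus strand: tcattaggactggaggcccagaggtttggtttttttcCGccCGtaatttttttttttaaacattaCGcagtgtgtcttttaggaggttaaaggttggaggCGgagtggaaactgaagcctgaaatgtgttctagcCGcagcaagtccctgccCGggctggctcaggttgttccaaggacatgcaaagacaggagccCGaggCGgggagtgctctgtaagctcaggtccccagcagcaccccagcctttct
Il13ra1 at chrX:36111858-36112107, plus strand: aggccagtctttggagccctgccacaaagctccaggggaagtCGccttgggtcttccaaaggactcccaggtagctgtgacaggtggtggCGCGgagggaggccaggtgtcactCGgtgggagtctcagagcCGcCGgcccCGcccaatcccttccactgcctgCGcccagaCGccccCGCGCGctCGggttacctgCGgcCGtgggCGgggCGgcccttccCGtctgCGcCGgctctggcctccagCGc
Il4ra at chr7:125552021-125552270, plus strand: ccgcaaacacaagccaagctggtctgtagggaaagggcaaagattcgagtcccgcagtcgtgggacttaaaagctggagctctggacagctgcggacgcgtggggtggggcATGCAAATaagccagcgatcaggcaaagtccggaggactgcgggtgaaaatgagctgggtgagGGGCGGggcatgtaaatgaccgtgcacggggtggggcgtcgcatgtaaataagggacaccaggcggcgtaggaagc

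In windows of 300 bases, which add the first 50 transcribed bases, CpG dinucleotides numbered 44 in Jak2, 29 in Jak1, 28 in Il13ra1, 25 in Il4ra, 23 in Tyk2, 9 in Jak3 and 3 in Il2rg. The median over all 32851 such windows was 7. Of the members, 5 lay well above this median, Jak3 lay near it and Il2rg below it. The GC content of the windows ran from 50.3% in Il2rg to 81% in Jak2. Neither spacing of the palindrome bound by STAT proteins was found in any member window. The 4-base spacing preferred by STAT6, TTCNNNNGAA, was present in 6.95% of all windows, and the 3-base spacing, TTCNNNGAA, in 8.30%. Motifs were searched on both strands, and the absence of these letters says nothing of STAT6 binding elsewhere. The GC box GGGCGG lay in 35.7% of all windows and in 6 of the 7 members, the exception being Il2rg. The ETS motif CCGGAAG, in 8.86% of windows, was found in Il2rg alone of the members. It is the motif of the ETS family of factors. The octamer ATGCAAAT, the motif of POU-domain factors, was present in 1.74% of windows and among members only in Il4ra. The octamer was searched after its letters had been seen in the Il4ra sequence.

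Values are reads in a peak, scaled by the authors to the reads in all listed peaks of a library (CPM), and 1 read was worth between 0.728 CPM in WT Tfh4 and 1.25 CPM in KO Tfh214. Libraries held from 798555 reads (KO Tfh214) to 1373218 reads (WT Tfh4) in peaks. Peaks at start sites took more of the reads in KO than in WT within each population, at 36.4% against 31.5% in Tfh21, 34.9% against 31.0% in Tfh214 and 29.7% against 27.6% in Tfh4. A second scaling by median of ratios, which sets the typical strong peak equal between libraries, is therefore given where it changed a result. The Stat6 locus itself was listed in every library, at 45.4, 54.3 and 42.2 CPM in WT and 54.2, 63.9 and 54.9 CPM in KO. As the deleted part is not given, these values are no check of the genotype. All 13 T follicular helper and T cell marker genes had peaks, summing to between 637 and 860 CPM. Markers of other cells had peaks too, so a listed peak does not by itself identify a cell type. The marker lists differ in size, and their sums are not compared with each other. Of the B cell markers, Ms4a1 and Cd79a were not listed, and 6 of 8 were listed at summed levels that were lowest in Tfh21 within each genotype, at 126, 164 and 162 CPM in WT and 109, 126 and 133 CPM in KO. All 7 myeloid markers were listed, at 110 to 127 CPM, and 4 of 6 CD8 T and NK cell markers at 15.0 to 29.1 CPM, with Cd8a and Ncr1 not listed. The part of other cells in the values below was not tested.

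Depth set what could be seen. Only 7 of the 103 member peaks had a mean of at least 20 reads per library, the minimum for the tests. These were the start-site peaks of Il4ra, Jak1, Jak2, Jak3 and Tyk2 and 2 further peaks of Jak1. The other 96 held totals of 10 to 104 reads over the 6 libraries, with a median of 16. Summed over its peaks, each of 5 genes passed the same minimum, and Il2rg, with 88 reads in all, did not.

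Il4ra and Il2rg, the receptor chains with peaks, showed 1 dominant start-site peak each. Il4ra had 13 peaks, and the peak over its start site, at chr7:132695435-132696022 (build mm9, as are all peak positions), held 160 of its 353 reads. This peak stood at 17.8, 24.4 and 19.7 CPM in the WT libraries and at 25.7, 30.1 and 25.0 CPM in the KO libraries. All 3 KO values lay above all 3 WT values, a pattern shown by 13.4% of the 8986 peaks tested, and Il4ra was the only member among the 7 peaks to show it. The log2 difference between KO and WT was 0.38 ± 0.20 (SE) in a limma fit with genotype and population as terms, with an adjusted p of 0.264. The pooled ratio for this peak was 1.28, with an exact binomial 95% interval of 0.929 to 1.77. With median-of-ratios scaling the KO and WT values of the peak overlapped. Each of its 12 other peaks held 22 reads or fewer over all libraries.

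Over all its peaks, Il4ra stood at 50.8, 44.0 and 53.2 CPM in WT and at 53.3, 58.9 and 51.7 CPM in KO. The genotypes overlapped, and the KO to WT ratio was 1.10 (95% interval 0.883 to 1.36). The populations were as close, with ratios of 0.957 (0.726 to 1.26) for Tfh214 to Tfh21, 1.01 (0.781 to 1.31) for Tfh4 to Tfh21 and 1.05 (0.811 to 1.38) for Tfh4 to Tfh214. No interval of these sums left out 1. Among the small peaks, one in intron 4 at chr7:132711410-132711704 had 0, 1 and 0 reads in WT and 3, 4 and 3 reads in KO. Its KO to WT ratio was 12.2 (1.74 to 529), the only interval of the 103 member peaks to exclude 1 in this contrast, while 5.97% of all listed peaks did so. A peak in intron 3 at chr7:132709840-132710326 had 4 and 5 reads in WT and KO Tfh4, 1 in KO Tfh214 and 0 in the other 3 libraries. A peak in coding exon 10 at chr7:132718302-132718842 had 4 and 6 reads in WT and KO Tfh21 against 1 and 1 in Tfh4. Values of so few reads are close to the detection limit of the list, whose peaks hold at least 10 reads each.

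Il2rg, whose chain is shared by the receptors of IL-2, IL-4, IL-7, IL-9, IL-15 and IL-21, had 2 peaks on the X chromosome. The start-site peak at chrX:98463486-98463926 held 12, 14 and 11 reads in WT and 17, 9 and 14 in KO. The other peak, in coding exon 4 at chrX:98462174-98462475, had 4 reads in each Tfh4 library, 1 and 2 in WT and KO Tfh214 and 0 in both Tfh21 libraries. In sum Il2rg stood at 10.7, 11.8 and 10.9 CPM in WT and 16.2, 13.8 and 14.5 CPM in KO. Every KO value lay above every WT value, as for 8.83% of the 10825 genes deep enough to test, but at 11 to 18 reads per library the ratio of 1.34 had an interval of 0.860 to 2.08. With median-of-ratios scaling the ratio was 1.18 (0.757 to 1.83) and the genotypes overlapped. No difference was detectable at this depth.

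Il13ra1, the chain of the second IL-4 receptor, had no peak under its symbol or a RefSeq synonym. Its promoter is CpG-rich, as the sequence above shows. Among X-linked genes with 1 promoter window and 20 or more CpG, 104 of 159 (65.4%) had a start-site peak, against 72.4% of such genes on the autosomes. The X chromosome was thin in the list as a whole. It held 2041 peaks, 0.721% of all, and 41.6% of its 966 protein-coding RefSeq genes had a peak, against 77.7% on the autosomes. The missing entry of Il13ra1 says that no peak was listed, not that its chromatin was closed.

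**Figure D1:**
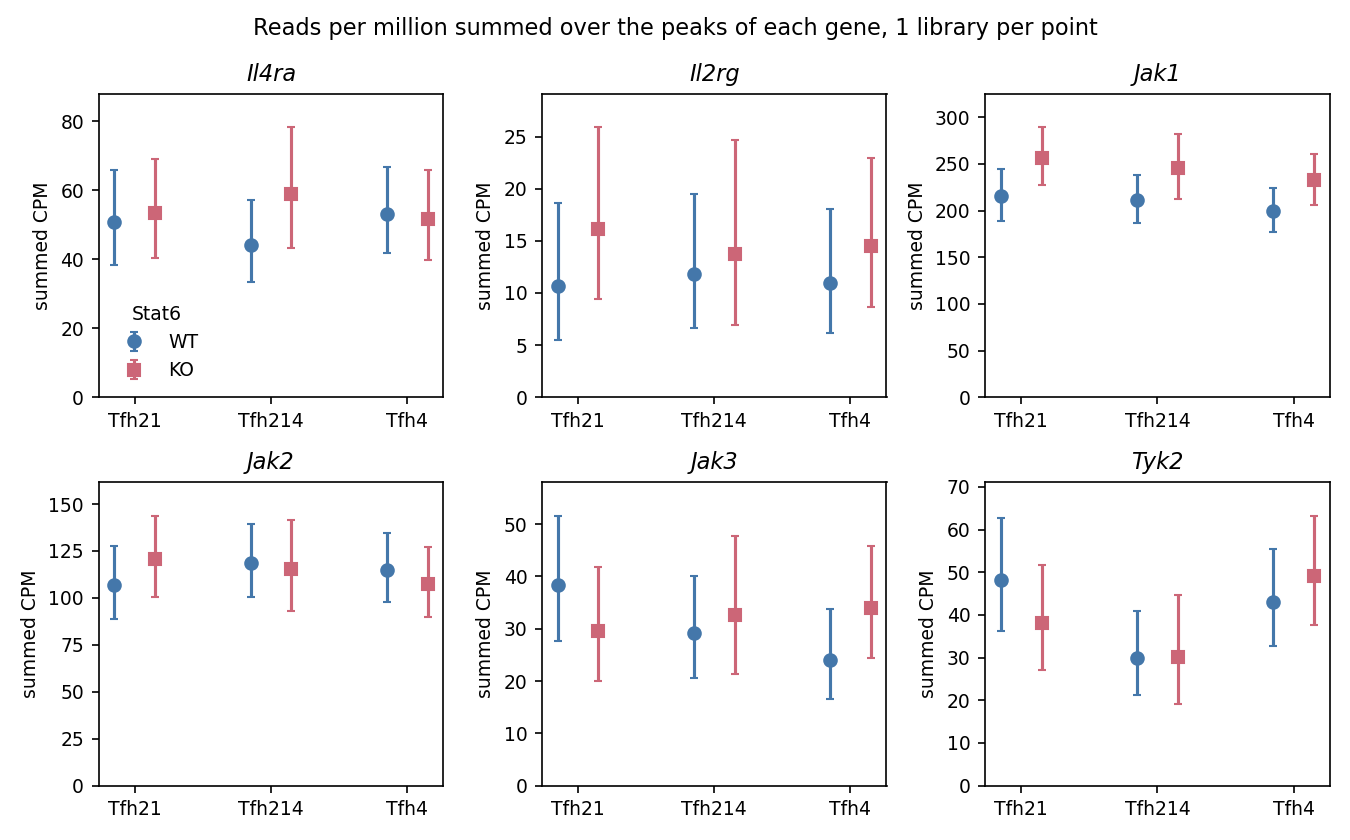
Summed CPM over all peaks of each member gene (vertical axes, starting at 0) by population, with 1 library per point, WT as circles and KO as squares, and exact Poisson 95% intervals for counting error. The Jak1 values of KO lie above those of WT in each population, and the Tyk2 values are lowest in Tfh214 in both genotypes.

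Jak1 encodes the kinase bound by the Il4ra chain and by many other cytokine receptors, and it was the member with the most chromatin evidence, with 50 peaks and 1539 reads. Summed over these, Jak1 stood at 215.6, 211.5 and 199.5 CPM in WT and at 256.9, 245.4 and 232.5 CPM in KO. Each KO library was above all WT libraries, the pattern of 8.83% of genes noted for Il2rg. The KO to WT ratios were 1.19 (0.998 to 1.42), 1.16 (0.960 to 1.40) and 1.17 (0.984 to 1.38) in the 3 populations, near each other and each with an interval that reached 1. The pooled ratio of 1.17 had an interval of 1.06 to 1.297. Jak1 was the 1 member of the 5 tested whose pooled interval excluded 1, beside 12.6% of all genes tested, of which 898 were higher and 461 lower in KO. The limma estimate on the log2(CPM + 1) scale was 0.23 ± 0.10, with an adjusted p of 0.381 over all genes. Hence Jak1 was not called different.

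The difference depended on the scaling. With median-of-ratios scaling the Jak1 ratio was 1.03 (0.932 to 1.14), and KO and WT libraries overlapped. By that scaling 44 genes had intervals above 1 and 1697 below it. The share of reads at start sites was also higher in the KO libraries, and its part in the Jak1 ratio was not tested. The Jak1 peaks away from the start site gave 1.16 (1.04 to 1.29) by themselves. Over the 5184 genes with enough reads away from start sites, the median KO to WT ratio was 0.968, and 15.8% had an interval excluding 1. The Jak1 start-site peak gave 1.28 (0.970 to 1.68), and its limma estimate was 0.36 ± 0.17 with an adjusted p of 0.207. By median-of-ratios scaling, this start-site peak was the 1 member peak with all KO values above all WT values, as were 5.15% of peaks tested. Leaving out any single library left the pooled CPM ratio for all peaks between 1.14 and 1.21.

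**Figure D2:**
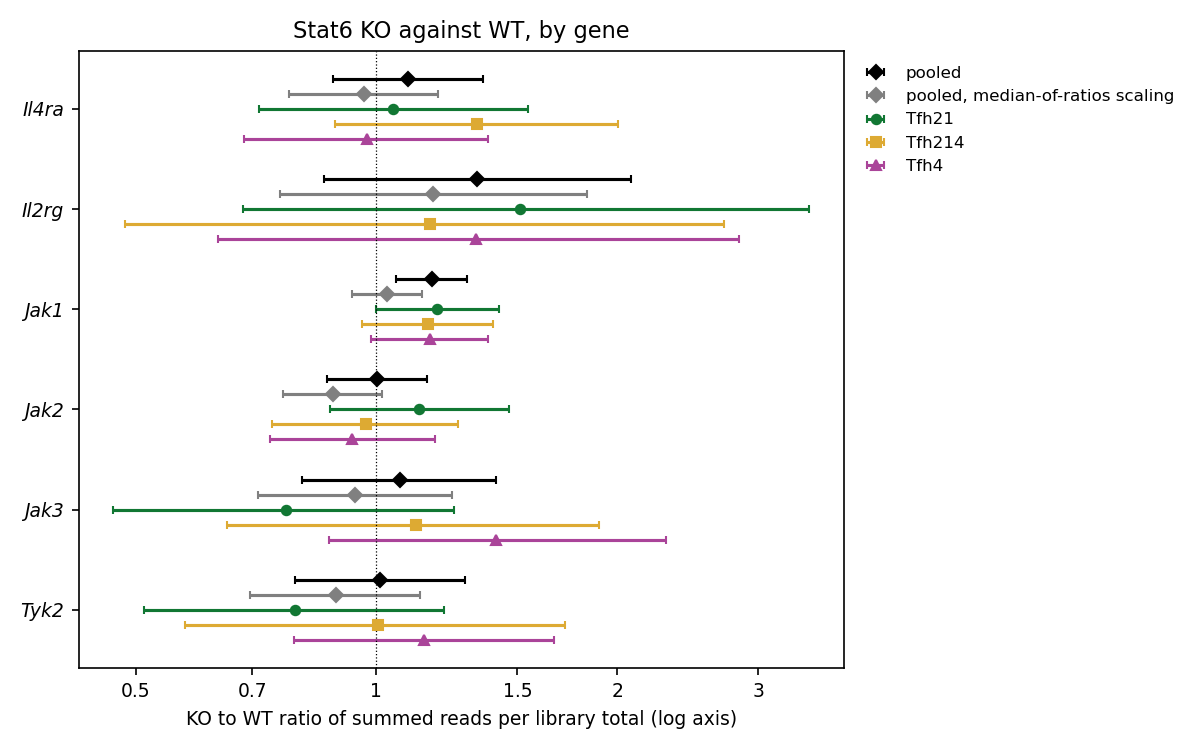
Ratio of KO to WT summed reads, each divided by its library totals, for the 6 member genes with peaks (log axis), pooled over populations by CPM and by median-of-ratios scaling and within each population by CPM, with exact binomial 95% intervals for counting error. The pooled Jak1 ratio of 1.17 by CPM is the 1 pooled value whose interval leaves out 1, and by median-of-ratios scaling it is 1.03.

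The reads of Jak1 were spread along the gene. Its start-site peak at chr4:100937375-100938044 stood at 31.2, 33.0 and 21.1 CPM in WT and 40.0, 37.6 and 31.5 CPM in KO. A peak in intron 4, at chr4:100859845-100860545 and 77.3 kb from the start site, stood at 31.2, 32.2 and 23.3 CPM in WT and 34.2, 31.3 and 33.9 CPM in KO. The intronic peak held about as many reads as the start-site peak, 211 against 217 reads in all and a ratio of 0.972 (0.801 to 1.18), and the ratio within a library ran from 0.833 to 1.10. Of the 9655 genes tested that had a start-site peak, 16.9% had another peak at 0.9 or more of it. Further Jak1 peaks above 80 reads lay 47.9 kb from the start site, with 101 reads, and 97.0 kb away in intron 11, with 82 reads. Start-site peaks took 14.9% of Jak1 reads (Wilson interval 13.3 to 16.8), below the median of 62.1% over the genes tested.

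The peak 10.1 kb inside Jak1, at chr4:100927274-100927760, differed most between populations of the 3 Jak1 peaks tested. It had 26 and 28 reads in WT and KO Tfh21, 19 and 10 in Tfh214, and 19 and 27 in Tfh4. By CPM this was 23.2 and 26.6 in Tfh21 against 14.9 and 12.5 in Tfh214, lower in Tfh214 in each genotype. The Tfh214 to Tfh21 ratio was 0.564 (0.346 to 0.901), while the Jak1 start-site peak had a log2 difference of -0.003 ± 0.21. For the inner peak the limma estimate was -0.82 ± 0.29, with an adjusted p of 0.9997, and no peak of the 8986 was called in that contrast. Between KO Tfh214 and KO Tfh21 it was the 1 member peak past 2-fold, at a log2 difference of -1.03, with no replicate for this pair. The file labels this peak, and 33 others of Jak1 up to 70.9 kb from the start site, as 5' UTR exon. A label over so long a stretch cannot stand for exons alone, so exon and intron are not told apart there.

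**Figure D3:**
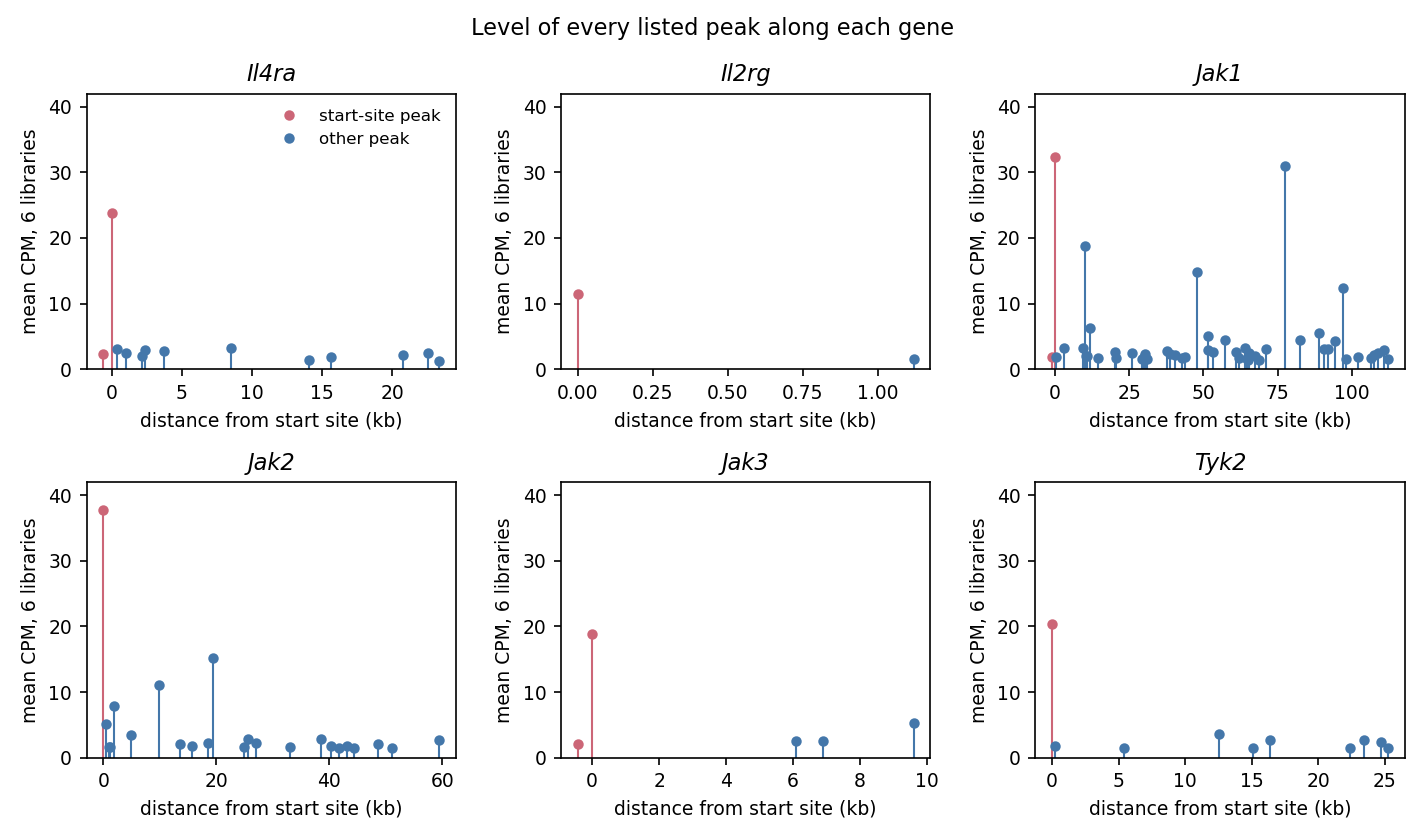
Mean CPM over the 6 libraries (vertical axis, same scale in each panel) of all 103 member peaks against their distance from the start site in kb, with start-site peaks in red and other peaks in blue. Jak1 has an intronic peak 77.3 kb from its start site about as high as the start-site peak, while Il4ra, Jak3, Tyk2 and Il2rg have a single high peak.

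Jak3, the kinase of the common gamma chain, had 5 peaks and 212 reads. Its start-site peak at chr8:74200038-74200555 held 128 of them, at 24.0, 20.4 and 13.1 CPM in WT and 21.9, 16.3 and 17.0 CPM in KO. Tfh21 was the highest population in both genotypes at this peak, with a limma difference between Tfh4 and Tfh21 of -0.59 ± 0.29 and an adjusted p of 0.181. In sum Jak3 stood at 38.3, 29.1 and 24.0 CPM in WT and 29.5, 32.6 and 33.9 CPM in KO. The order of the populations was opposite in the genotypes, and no interval of a pair of libraries excluded 1. The pooled KO to WT ratio was 1.07 (0.808 to 1.41).

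Jak2, a kinase of the second IL-4 receptor and of receptors such as those for interferon gamma, had 23 peaks and 781 reads. Its start-site peak at chr19:29325796-29326638 was the highest member peak, at 38.3, 42.5 and 32.8 CPM in WT and 36.2, 40.1 and 36.3 CPM in KO. The gene sums were 106.9, 118.7 and 115.1 CPM in WT and 120.8, 115.2 and 107.4 CPM in KO. By CPM, the ratio of the highest to the lowest library was smaller than for any other member with peaks. The KO to WT ratio was 1.001 (0.867 to 1.16). Population ratios were 1.03 (0.862 to 1.24), 0.981 (0.825 to 1.17) and 0.949 (0.798 to 1.13). Jak2 did not keep this rank under the second scaling. There its KO to WT ratio was 0.881 (0.763 to 1.02). Its Tfh4 to Tfh21 ratio there was 1.20 (1.01 to 1.42), an interval that excluded 1. The next Jak2 peaks lay in the section labelled coding exon 4, with 104 reads, and 9.80 kb from the start site, with 78 reads.

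Tyk2, which like JAK2 can serve the Il13ra1 chain, had 10 peaks and 276 reads. It was the 1 member whose gene sum had population intervals that excluded 1 by CPM, although no test called it. Tyk2 stood at 48.1, 29.9 and 43.0 CPM in WT and at 38.1, 30.1 and 49.2 CPM in KO. The Tfh214 libraries were the lowest of the 6, a pattern found in 4.64% of the 10825 genes tested, and Tyk2 alone among the 5 tested members showed it. It kept this order with median-of-ratios scaling, under which 9.08% of genes did. The ratio of Tfh214 to Tfh21 was 0.693 (0.494 to 0.965), and 6.25% of genes tested had an interval excluding 1, 299 higher and 378 lower. With median-of-ratios scaling it was 0.722 (0.515 to 1.006), which no longer excluded 1, while 509 genes were higher and 184 lower. The ratio of Tfh4 to Tfh214 was 1.53 (1.12 to 2.12), with 10.9% of genes excluding 1, 436 higher and 741 lower. By median of ratios it was 1.79 (1.31 to 2.48), with 1891 genes higher and 46 lower. Between Tfh4 and Tfh21 no pooled CPM ratio of a member over all its peaks and libraries excluded 1, where 15.8% of genes did, 563 higher and 1143 lower. In that contrast the Jak1 ratio became 0.838 (0.723 to 0.972) without WT Tfh21 and 0.847 (0.729 to 0.983) without KO Tfh4. With median-of-ratios scaling the Jak2 ratio was 1.20 (1.01 to 1.42), and the Tyk2 ratio within KO was 1.61 (1.07 to 2.47). By that scaling 22.2% of genes excluded 1 in the pooled contrast, 2370 higher and 30 lower.

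In the limma fit the log2 difference of Tyk2 was -0.50 ± 0.21 for Tfh214 against Tfh21, with an adjusted p of 0.908, and 0.60 ± 0.21 for Tfh4 against Tfh214, with an adjusted p of 0.395. Tyk2 was thus not called. Leaving out 1 library also removed reads, and more than 1 such omission brought each interval to 1. Without WT Tfh21, WT Tfh214 or KO Tfh214, the Tfh214 to Tfh21 ratio was 0.787, 0.695 and 0.691. The upper bounds of these intervals were 1.20, 1.10 and 1.02. Without WT Tfh214 or KO Tfh4, the Tfh4 to Tfh214 ratio was 1.53 and 1.43, with lower bounds of 0.980 and 0.987.

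The gap between the Tyk2 libraries was wider in the peaks away from its start site, although that contrast between the sets of peaks was not itself tested. The start-site peak at chr9:20935504-20935924 had 19.6, 17.3 and 17.5 CPM in WT and 27.6, 18.8 and 21.8 CPM in KO, with a Tfh4 to Tfh214 ratio of 1.09 (0.702 to 1.72). The 9 other peaks had 32, 16 and 35 reads in WT and 11, 9 and 34 reads in KO. They summed to 28.5, 12.6 and 25.5 CPM in WT and 10.5, 11.3 and 27.5 CPM in KO. WT Tfh21 and both Tfh4 libraries were high, and KO Tfh21 and both Tfh214 libraries were low. The Tfh4 to Tfh214 ratio of these peaks was 2.19 (1.37 to 3.61). Away from start sites 14.8% of genes had an interval excluding 1, 579 higher and 188 lower, at a median ratio of 1.06. Between genotypes, the low KO Tfh21 library gave a ratio of 0.367 (0.167 to 0.748) to WT Tfh21. The KO to WT ratio was 0.896 (0.349 to 2.15) in Tfh214 and 1.08 (0.652 to 1.78) in Tfh4. No share of all genes is given for such pairs of single libraries, so how common an interval like that of Tfh21 was is not known. Each of the 9 peaks held 10 to 26 reads over all libraries, near the listed minimum of 10. Such peaks may be listed only through the libraries where they are high, so their sum and its ratios support no difference. The gene sums of Tyk2 include these peaks. One, in intron 23 at chr9:20910467-20910967, had 7 and 6 reads in WT and KO Tfh4 against 1 and 0 in Tfh21, and one in intron 3 at chr9:20929959-20930316 had 5 and 2 reads in Tfh21 and 0 in both Tfh214 libraries.

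**Figure D4:**
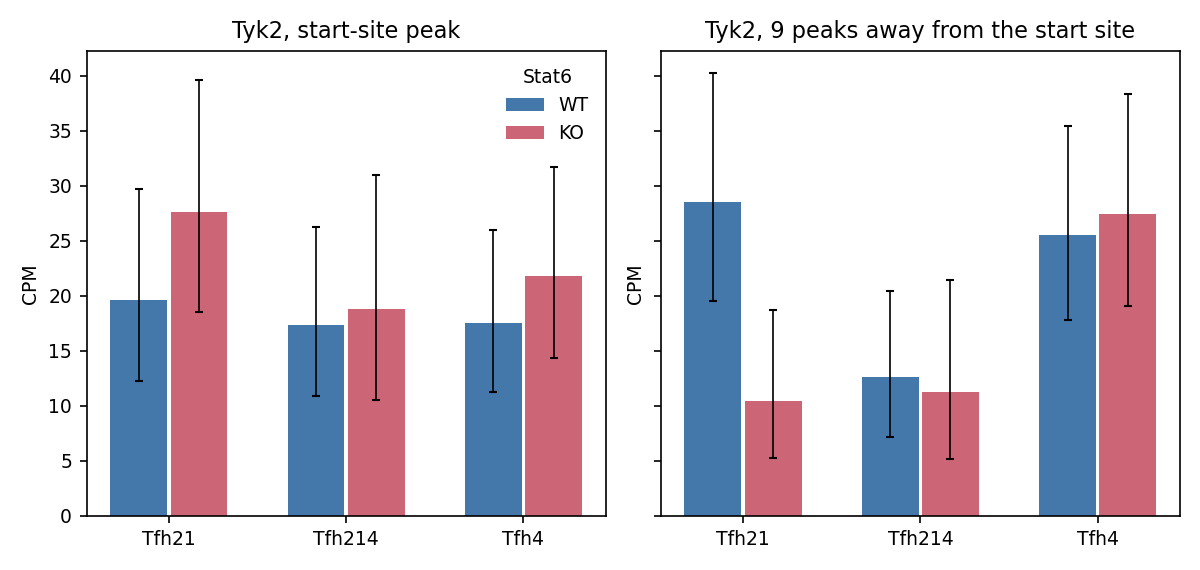
CPM of Tyk2 (vertical axis from 0) in its start-site peak and in the sum of its 9 other peaks, by population, with WT and KO bars of 1 library each and exact Poisson 95% intervals for counting error. Outside the start site, WT Tfh21 and both Tfh4 libraries lie at 25.5 to 28.5 CPM, and KO Tfh21 and both Tfh214 libraries at 10.5 to 12.6 CPM. Each of the 9 peaks held 10 to 26 reads in all and may be listed only through libraries where it is high.

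Start-site peaks could be compared between members per kilobase of peak. The means over 6 libraries were 48.6 ± 9.2 CPM per kb (SD, n = 6) for Tyk2, 48.4 ± 9.8 for Jak1, 44.8 ± 4.0 for Jak2, 40.5 ± 7.5 for Il4ra, 36.3 ± 7.8 for Jak3 and 25.9 ± 6.0 for Il2rg. Neighbours in this order differed by less than the larger of their SDs except Jak3 and Il2rg, whose gap was larger than the SD of either. Jak3 and Il2rg, the members with the fewest CpG among those with a peak, stood lowest. Over all autosomal genes with 1 promoter window, those with under 10 CpG had a start-site peak in 14.3% of cases at a median of 6.22 CPM per kb. Those with 20 or more CpG had one in 72.4% at a median of 37.6. For X-linked genes with under 10 CpG that median was 21.6. Jak3 thus lay above the median of start-site peaks in its own CpG class. Il2rg lay above the X-linked median by less than its SD, with its lowest library at 18.2 CPM per kb. That median came from 50 genes with a start-site peak. The class limits were chosen after the CpG counts of the members had been seen. The share of a gene's reads at its start site ran from 14.9% in Jak1 and 32.9% in Jak2 to 50.1% in Il4ra, 50.4% in Tyk2, 67.0% in Jak3 and 87.5% in Il2rg. The long genes with many peaks were at the low end.

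Across all tests no member was called. In the limma fits at an adjusted p under 0.05, 0 of 7 member peaks and 0 of 5 member genes were called in any of the 4 contrasts. Over all peaks tested the called share was 0.857% for KO against WT, 0% for Tfh214 against Tfh21, 1.31% for Tfh4 against Tfh21 and 1.98% for Tfh4 against Tfh214. Over all genes it was 0.0554% for KO against WT and 0% for the 3 population contrasts. At an unadjusted p under 0.05, limma gave 1 member gene for KO against WT (Jak1), 1 for Tfh214 against Tfh21 and 1 for Tfh4 against Tfh214 (Tyk2 in both) and 0 for Tfh4 against Tfh21. The shares of all genes at that level were 11.1% for KO against WT, 5.1% for Tfh214 against Tfh21, 12.7% for Tfh4 against Tfh21 and 10.1% for Tfh4 against Tfh214. It gave 1, 1, 2 and 1 member peaks in KO against WT, Tfh214 against Tfh21, Tfh4 against Tfh21 and Tfh4 against Tfh214. The shares of all peaks were 21%, 3.84%, 26.1% and 22.2% in the same order. edgeR's quasi-likelihood test and DESeq2 called 0 members as well. The median log2 KO to WT difference was 0.09 over the 5 member genes and 0.07 over all genes tested.

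Pairs of single libraries gave the same picture. Of the 9 pairs, 8 had no member peak past 2-fold among the 7 to 9 member peaks with 20 reads in the higher library. The share of all peaks past 2-fold in those pairs was 1.74%, 1.18% and 2.86% for KO against WT in Tfh21, Tfh214 and Tfh4. In WT it was 0.761% for Tfh214 to Tfh21, 1.84% for Tfh4 to Tfh21 and 3.59% for Tfh4 to Tfh214, and in KO 1.58%, 2.11% and 1.94%. The KO pair of Tfh214 and Tfh21 held the Jak1 peak given above. Among all 103 member peaks, down to those of 10 reads, intervals excluded 1 for 3 between Tfh214 and Tfh21, 7 between Tfh4 and Tfh21 and 5 between Tfh4 and Tfh214. The shares over all listed peaks were 3.51%, 4.65% and 5.34%. Out of 103 peaks, the members' counts were of the same order.

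Of the member peaks behind these counts, 6 were higher and 1 lower in Tfh4 than in Tfh21. There were 1 higher and 2 lower in Tfh214 than in Tfh21, and 3 higher and 2 lower in Tfh4 than in Tfh214. A peak near the listed minimum of 10 reads may be listed only through the libraries where it is high, so these directions support no difference. Over all 282898 peaks, the median limma log2 difference was 0.11 for Tfh4 against Tfh21, 0.007 for Tfh214 against Tfh21 and 0.10 for Tfh4 against Tfh214. In Jak1, a peak 20.2 kb from the start site had 6 and 8 reads in WT and KO Tfh4 against 1 and 1 in Tfh21 and 1 and 2 in Tfh214. Peaks 68.5 and 40.4 kb from its start site had 8 and 10 reads in the Tfh4 libraries together against 0 and 1 in the Tfh21 libraries. A peak in intron 9 of Jak1 had 9 and 5 reads in WT and KO Tfh4 against 2 and 1 in Tfh214. Lower in Tfh4 than in Tfh214, peaks 42.9 and 9.54 kb inside Jak1 had 7 and 11 reads in Tfh214 together and 1 and 4 in Tfh4. In Jak2, a peak in coding exon 14 had 5 and 2 reads in WT and KO Tfh214 and 0 in both Tfh21 libraries, and one in intron 13 had 6 and 1 in Tfh4 and 0 in both Tfh214 libraries.

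The rest of the pathway was read from lists of genes with sums of at least 20 reads on average. None of their genes was called by limma in any contrast, and all values below are log2 differences between KO and WT with their SE. Of the 4 other gamma-chain receptor genes tested, 3 lay above 0, from Il21r, the IL-21 receptor, at -0.06 ± 0.16, to Il2ra, the alpha chain of the IL-2 receptor, at 0.19 ± 0.13. Of 12 other Janus-kinase receptors, 7 lay above 0, from Il23r at -0.27 ± 0.21 to Il10rb at 0.28 ± 0.16. Of 13 adaptors and signal transducers, 9 lay above 0, from Gab2, a docking protein, at -0.31 ± 0.15 to Dok2, an inhibitory adaptor, at 0.38 ± 0.27. Of 8 genes induced by IL-4 through STAT6, 5 lay above 0, from Epas1 at -0.04 ± 0.13 to Cish, a feedback inhibitor, at 0.22 ± 0.24. The list medians were 0.13, 0.04, 0.14 and 0.07, beside 0.07 for all genes.

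The last list held negative regulators of Janus kinase signalling, such as the SOCS proteins and the phosphatases. Of 13 tested, 11 lay above 0 between KO and WT, with a median of 0.10, from Socs3 at -0.12 ± 0.26 to Socs5 at 0.34 ± 0.12, whose adjusted p in limma was 0.295. None of the 13 lay above 0 for Tfh214 against Tfh21, with a median of -0.18, or for Tfh4 against Tfh21, with a median of -0.32. The medians over all genes tested were -0.03 and -0.11 in these contrasts. With median-of-ratios scaling, 1 and 2 of the 13 lay above 0. The T follicular helper and T cell markers were alike in Tfh4 against Tfh21, with 2 of 12 above 0 and a median of -0.31. They were not alike in Tfh214 against Tfh21, with 6 of 12 above 0 and a median of 0.0009. The pathway lists above also leaned below 0 by CPM in Tfh4 against Tfh21, as did the median over all genes. Above 0 were 1 of 4 gamma-chain receptor genes, 1 of 12 Janus-kinase receptors, 3 of 13 adaptors and 1 of 8 STAT6-induced genes. With median-of-ratios scaling these 4 counts were 2, 4, 5 and 3, and 3 of the 12 T follicular helper and T cell markers lay above 0. In Tfh214 against Tfh21 the counts for the 4 pathway lists were 0, 4, 6 and 3 by CPM. By median of ratios they were 0, 7, 7 and 4. The share of all genes above 0 was not counted. Since both contrasts share the Tfh21 libraries, their signs are not independent.

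Correlations between the levels of the 5 tested members across libraries had no common sign. Il2rg, under the minimum, was not compared. Pearson correlations of log2(summed CPM + 1) over the 6 libraries ran from -0.74 between Jak2 and Tyk2 to 0.50 between Il4ra and Jak1. Jak2 ran from 106.9 to 120.8 CPM, within the counting interval of its WT Tfh21 library alone, 88.6 to 127.8 CPM. Such correlations cannot tell shared variation from counting error. The genes most like each member, among 10825 compared, were Cacfd1 (r = 0.992) and Lrp1 (0.977) for Il4ra, Hist1h2bb (0.997) and Noa1 (0.994) for Jak1, and Rabl6 (0.993) and Fndc7 (0.993) for Jak2. They were Ddx10 (0.993) and Notch3 (0.986) for Jak3 and Snx7 (0.993) and Ankrd28 (0.983) for Tyk2. These values describe 6 points that share library depth, and the highest of so many comparisons is high in any case.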

How the data were processed

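The files hold ATAC-seq peaks of 6 libraries, 1 per genotype and population. The authors deposited CPM for 1 common list of peaks in mm9. Bowtie 1.3.0, MACS2 2.0 and HOMER are named in the submitters' processing notes, with no role stated. Duplicate handling, cut-site shift and whether peaks were called on pooled reads were not given in the sources used here. In the table, the column headed as gene symbol held positions, and symbols came from the column of gene IDs. Each value was a whole multiple of what 1 read is worth (at least 99.9989% of values within 0.02 reads in every library), so reads were recovered. Ratios carry exact binomial and levels exact Poisson 95% intervals, which cover counting error only (PCR copies are no independent molecules). limma 3.58.1 was fitted to log2(CPM + 1) of all peaks or gene sums with a mean of at least 20 reads, with genotype and population as terms, 2 residual degrees of freedom, a variance trend and Benjamini-Hochberg adjustment at 0.05. This log2 scale understates changes of low peaks. edgeR 4.0.16 and DESeq2 1.42.0 were run on recovered reads. The count test is not the main one because the deposited unit is CPM. The fits were tested on simulated data. Population was a block because the labels name the same 3 populations in each genotype. With 1 library per group, populations serve as replicates of the genotype. A permutation of 3 libraries against 3 cannot give a p below 0.1. Alternatives were other scalings, pseudocounts of 0.5 and 4, other minimums, other tools, other sets of peaks per gene and leaving out each library. The members and lists were chosen with earlier results of these data known. Peaks named library by library were the highest of each gene, those with a mean of at least 20 reads and those whose interval excluded 1. List genes named were the highest and lowest by genotype effect, and genes most like a member were the 2 with the highest correlation.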

Additional observations from a re-analysis of the deposited data

How the results depend on the processing

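No member peak or gene was called by limma, edgeR or DESeq2 in any contrast under any alternative run, including leaving out each library and the fit with no population term (no replicate block), which gave 0 member peaks and 0 member genes called for KO against WT. Of 202 alternative values of the 24 gene ratios, 190 stayed within their margin and 12 moved, while 17 put the interval on another side of 1, all of Jak1, Jak2 or Tyk2. No value could be given for Il2rg away from its start site in Tfh214 or Tfh4 against Tfh21, because both Tfh21 libraries had 0 reads there. Median-of-ratios scaling moved the Jak1 ratios to 1.03 for KO to WT, 1.11 for Tfh4 to Tfh21 and 1.12 for Tfh4 to Tfh214, and the Jak2 ratio of Tfh4 to Tfh21 to 1.20, with an interval of 1.01 to 1.42. With start-site peaks alone, the Jak1 ratios were 0.741 for Tfh4 to Tfh21 and 0.772 for Tfh4 to Tfh214, with the highest peak alone 0.735 and 0.749. Tyk2 Tfh4 to Tfh214 was 1.09 from the start-site or highest peak and 2.19 away from the start site. The Tyk2 peaks there held 26 reads or fewer each, near the listed minimum. Away from its start site Il2rg gave 2.11, but from 1 peak of 11 reads and with an interval of 0.507 to 12.4. Member peaks past 2-fold over the 9 pairs numbered 1, but 0 with median-of-ratios scaling or a pseudocount of 4, and 15 with a minimum of 10 reads (11.3% of those tested, beside 16.1% of all peaks). The log2 KO to WT difference of Jak2, 0.01, became -0.061 with median of ratios, -0.064 with edgeR, -0.062 with DESeq2 and -0.069 with cyclic loess, and with 1 library left out it ran from -0.071 (without either Tfh21 library) to 0.066. With 1 library left out, that of Jak3, 0.09, ran from -0.104 (without either Tfh4 library) to 0.319, and that of Tyk2, -0.04, from -0.161 to 0.1004 (without either Tfh21 library). The cause was not tested. Over all peaks, calls for KO against WT numbered 77 and ran from 0 to 287 over the alternatives, for Tfh214 against Tfh21 0 and 0 to 2, for Tfh4 against Tfh21 118 and 0 to 633, and for Tfh4 against Tfh214 178 and 0 to 252. Over all genes these were 6 and 0 to 85, 0 and 0 to 8, 0 and 0 to 121, and 0 and 0 to 15. Depth limits the 96 member peaks under the minimum, whose intervals are wide and which entered no limma fit at that minimum.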
